A study of Homo sapiens with 4 samples.

Results

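The mucin family was followed across 4 RNA-seq libraries of A549, an established cell line grown from a human lung adenocarcinoma. Its 10 members were taken by gene symbol from the deposited table of 26255 genes. They are the secreted mucins MUC2, MUC5AC, MUC5B and MUC6 and the membrane mucins MUC1, MUC4, MUC12, MUC13, MUC16 and MUC20, and all 10 symbols were found. The solid and acinar libraries were made from tumor cells cut by laser microdissection out of A549 xenografts in immunodeficient mice, a solid tumor growing as sheets and an acinar one forming gland-like structures. The single and mix libraries were made from GFP-labelled A549 cells sorted out of 3D colonies grown without cancer-associated fibroblasts (CAFs) or, as the title "mix" was read, together with them. All 4 groups therefore share 1 cell line, and the sources used here give no genotype, drug treatment, time point or mouse age that sets them apart, nor whether both tumor libraries came from the same tumor or animal. There was 1 library for each group. Differences are therefore between single libraries, have no replicate check and carry no p-value. Where 4 values are listed without names, their order is solid, acinar, single, mix.

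Mucins are large glycoproteins whose repeat-rich protein core carries many O-linked sugar chains. Secreted gel-forming mucins are packed into granules and swell into mucus on release, MUC5AC and MUC5B being the main gel-formers of airway mucus. Membrane mucins stay anchored in the apical cell surface, where they form a barrier and can take part in signaling, and several of them are shed from carcinoma cells. MUC16 carries the tumor marker CA125.

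Values are scaled counts, meaning the deposited normalised fragment count divided by 1 constant for all libraries. The depth estimated from the values was 7265467, 6632976, 10965221 and 12184272 fragments, and 1 fragment was worth between 0.0805 and 0.155 scaled counts. Intervals are 95% exact (Clopper-Pearson) intervals of the fragments, cover counting error only, and treat fragments without molecular identifiers as if they were independent. For a gene with no fragment, 3 fragments were taken as the upper limit, which is 0.420, 0.465, 0.267 and 0.242 scaled counts in the solid, acinar, single and mix libraries. Epithelial identity held in all 4 libraries, KRT8 lying between 2451 and 4507 scaled counts, and CDKN2A, a gene that A549 cells have lost, had 1 fragment in the solid library and none elsewhere. The 12 fibroblast markers summed to 2464 (solid), 3065 (acinar), 412 (single) and 292 (mix) scaled counts, of which S100A4, also expressed by carcinoma cells, made up most, with POSTN at 0 in all 4. Of the 8 fibroblast markers measured, 2 (LUM and S100A4) had both tumors past 2-fold above both cultures and 2 (THY1 and PDGFRA) below. The 8 leukocyte markers summed to 239.7, 149, 49.9 and 44.3, of which CD68 made up most, at 175, 113, 29.5 and 26.8. The pan-leukocyte gene PTPRC lay between 0.644 and 1.40. Of the 6 leukocyte markers measured, 3 (LYZ, CD68 and ITGAM) had both tumors past 2-fold above both cultures and 0 below. The 7 endothelial markers summed to between 1.37 and 2.38. The 7 ciliated and club cell markers summed to 38.2, 16.7, 17.0 and 14.2, with the ciliary gene DNAI1 at 0 in all 4 libraries. TPPP3 was the highest of them, at 33.4, 15.5, 9.95 and 7.57. The xenografts also hold mouse host cells, and how far their RNA was counted under human symbols was not tested.

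Most mucin fragments came from a pair of gel-forming genes. The 10 genes together took 1.83% (interval 1.82 to 1.84), 0.912% (0.905 to 0.919), 0.974% (0.968 to 0.980) and 0.496% (0.492 to 0.499) of all fragments. Within both settings the second library, acinar or mix, thus gave a smaller mucin share. MUC5AC and MUC5B made up 91.8%, 79.7%, 99.3% and 99.1% of these fragments. The membrane mucins took 0.149% and 0.185% of fragments in the solid and acinar tumors against 0.00590% and 0.00404% in the single and mix cultures, so nearly all membrane mucin RNA was in the tumor libraries.

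**Figure D1:**
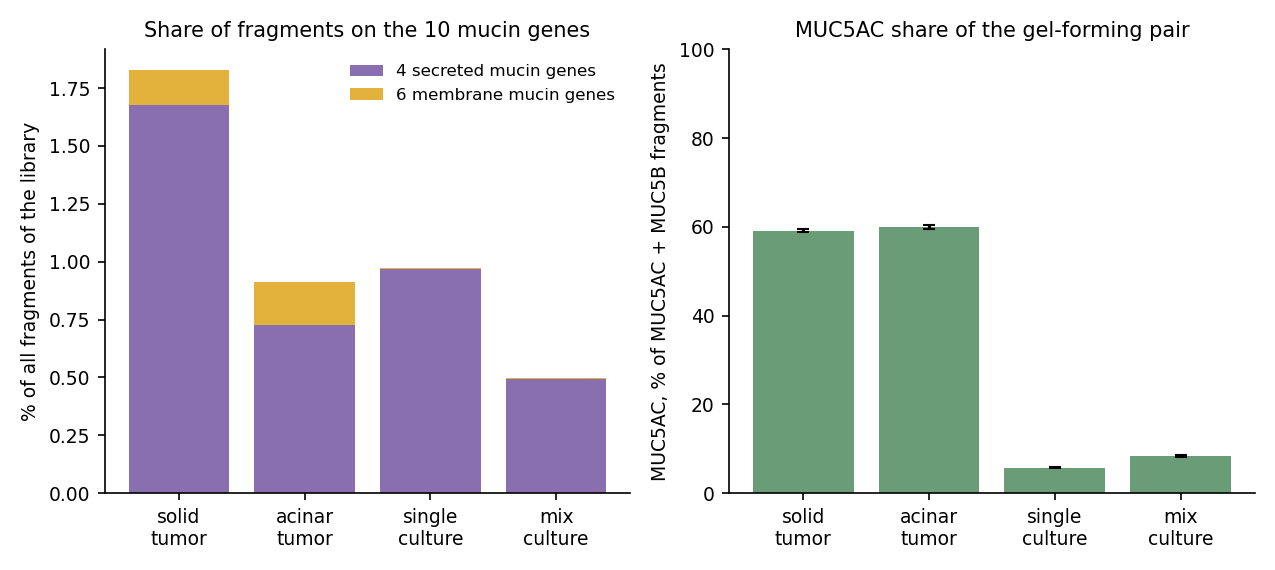
Left, percent of all fragments of each library on the 4 secreted and the 6 membrane mucin genes; the stacked bars reach 1.83% in the solid tumor and 0.496% in the mix culture. Right, MUC5AC as a percent of MUC5AC plus MUC5B fragments with 95% exact intervals; both tumors are near 60%, both cultures under 9%.

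MUC5AC, a gel-former that surface goblet cells make, was at 10079 (solid), 4487 (acinar), 544 (single) and 401 (mix) scaled counts. Its intervals did not overlap between any of the 4 libraries. With 72073 fragments it was the gene with the most fragments of the whole solid library, before any correction for length. Divided by the length of its longest annotated transcript (17.4 kb), it stood at 578, 257, 31.2 and 22.98 scaled counts per kb. By that measure it ranked 78th in the solid and 2883rd in the mix library among 23679 genes with a length.

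MUC5B, the other airway gel-former and the typical product of submucosal glands, was at 6966 (solid), 2993 (acinar), 8878 (single) and 4415 (mix) scaled counts. Unlike MUC5AC it did not separate tumors from cultures: from high to low the order was single, solid, mix, acinar. It had the most fragments of any gene in the single culture (99897). Per kb (17.9 kb) its levels were 389, 167, 496 and 247 scaled counts, the single culture value ranking 54th.

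The balance within this pair is free of any scaling between libraries. MUC5AC gave 59.1% of MUC5AC plus MUC5B fragments in the solid tumor (58.9 to 59.4) and 60.0% in the acinar tumor (59.5 to 60.4). The single and mix cultures had 5.78% (5.64 to 5.92) and 8.32% (8.10 to 8.55). The proportions of both tumors thus lay within 1 percentage point of each other, although both genes were more than 2-fold apart between them, and the cultures were far from both.

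MUC2, the gel-former of the intestine, was low, at 1.82, 1.24, 5.87 and 3.86 scaled counts in the solid, acinar, single and mix libraries (13, 8, 66 and 48 fragments). MUC6, the gel-former of gastric glands, was at 2.10, 0.155, 3.91 and 1.53 (15, 1, 44 and 19 fragments). For both genes the single culture was highest and the acinar tumor lowest. For MUC2 the acinar and solid values were not resolved from each other (acinar-to-solid ratio 0.682, 0.245 to 1.78). The order solid, mix was not resolved for MUC6, whose solid-to-mix ratio was 1.37 (0.648 to 2.85).

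**Figure D2:**
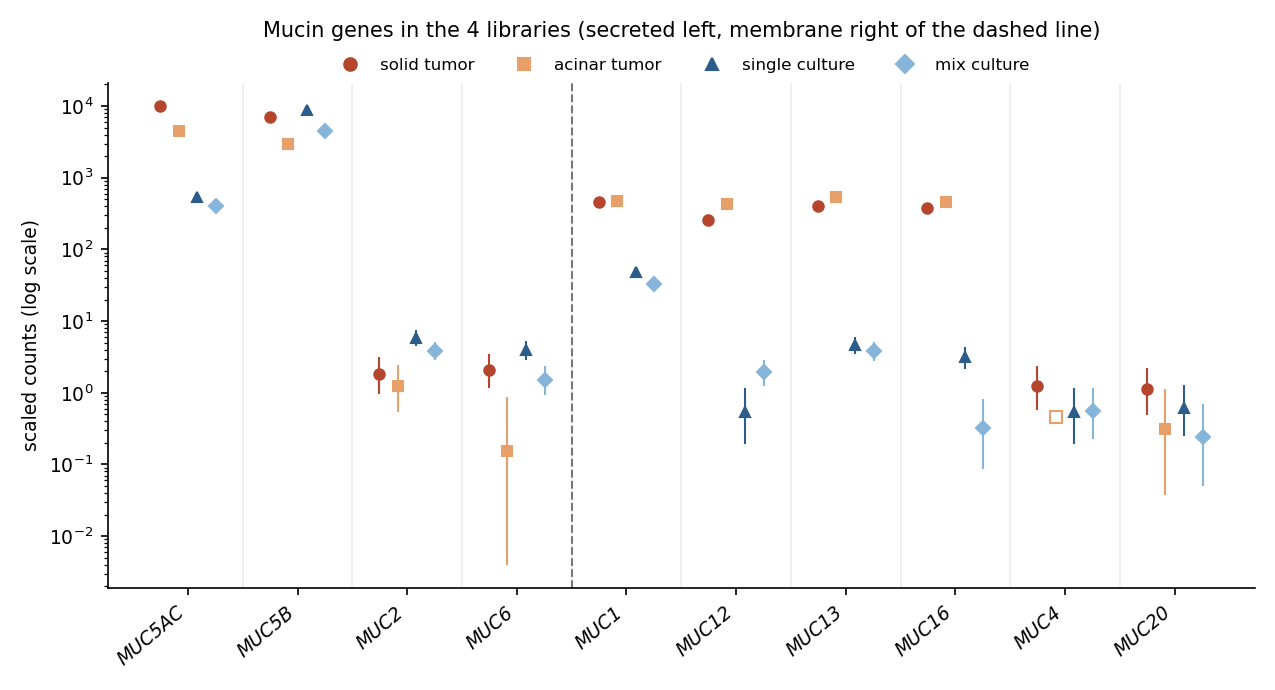
Scaled counts (log axis) of the 10 mucin genes in the 4 libraries, 1 point per library with its 95% exact counting interval; the open symbol marks a gene with no fragment, drawn at the 3-fragment limit. MUC1, MUC12, MUC13 and MUC16 lie near 260 to 543 in the tumors and at 48.1 or less in the cultures, whereas MUC5B overlaps between the settings.

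The membrane mucins MUC1, MUC12, MUC13 and MUC16 formed the most uniform pattern of the family, high in both tumors and low in both cultures. MUC1, the broadly expressed epithelial surface mucin, was at 465 (solid), 472 (acinar), 48.1 (single) and 32.8 (mix) scaled counts. The smallest of its tumor-to-culture ratios was 9.66 (8.82 to 10.6), and the tumors did not differ from each other beyond counting error (acinar over solid 1.02, 0.968 to 1.07). MUC13, a membrane mucin of the gastrointestinal epithelium, was at 407, 543, 4.62 and 3.78. The smallest tumor-to-culture ratio was 88.0 (66.9 to 118).

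MUC16, the very large CA125 mucin, was at 376 and 457 scaled counts in the solid and acinar tumors, against 3.11 (single) and 0.322 (mix) in the cultures, the last resting on 4 fragments. Its smallest tumor-to-culture ratio was 121 (86.6 to 174). MUC12, another intestinal membrane mucin, was at 259.7, 427, 0.533 and 1.93, the single culture value resting on 6 fragments. Here the smallest ratio was 134 (90.04 to 210.3). The tumor values of these 4 genes spanned only 259.7 to 543 scaled counts per gene, but their transcripts differ in length. Per kb, MUC13 (2.88 kb) was at 141 and 189 in the solid and acinar tumors, MUC1 (4.17 kb) at 111 and 113, MUC12 (16.7 kb) at 15.5 and 25.5, and MUC16 (43.8 kb) at 8.58 and 10.4.

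The remaining membrane mucins, neighbours on chromosome 3, were hardly detected. MUC4 had 9, 0, 6 and 7 fragments in the solid, acinar, single and mix libraries, and MUC20 had 8, 2, 7 and 3. For MUC4 the solid, single and mix values were not resolved from one another, and for MUC20 only the solid and mix values were (ratio 4.63, 1.11 to 27.1). MUC20 has a pseudogene copy nearby, MUC20P1, so its few fragments are also uncertain in origin.

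Over the whole table, 9.67% of 14561 genes had both tumors at least 2-fold above both cultures on the log2(value + 1) scale, and 8.22% had both at least 2-fold below. Of the 10 mucin genes, which all passed the minimum of 1 scaled count in at least one library, 5 were called in the first direction (MUC1, MUC5AC, MUC12, MUC13 and MUC16) and none in the second. MUC5AC was nearest the limit of these, its gap between the lower tumor and the higher culture being 3.04 on the log2 scale, against 3.25 for MUC1, 6.18 for MUC13, 6.47 for MUC12 and 6.52 for MUC16. The settings differ in host, in the way cells were collected and in depth, and these cannot be told apart here. Fibroblast and leukocyte marker sums were also higher in the tumors (values above), and their part in these differences was not tested. In such bulk libraries, fewer cells expressing a gene and less RNA per cell cannot be told apart either.

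The promoters of MUC1, MUC12 and MUC13, from the tumor-high membrane mucins, are shown because these genes share a pattern and because 3 of the genes with this pattern are chromosomal neighbours. Of the 10 members, 6 had an entry in the RefSeq promoter table (build GRCh38.p14; the deposited values come from hg19), and 250 bases upstream of the start are printed 5′ to 3′ on the strand of the gene. MUC1 is on the minus strand at chr1:155192916-155193165, MUC12 on the plus strand at chr7:100969315-100969564 and MUC13 on the minus strand at chr3:124934752-124935001. MUC3A (plus strand, chr7:100949284-100949533) and MUC17 (plus strand, chr7:101019831-101020080), membrane mucins outside the 10, are added as the neighbours of MUC12. MUC16 has 2 starts in that table, both outside the gene as GENCODE v29 annotates it, so its windows were searched but are not printed. Capitals mark every match, on either strand, to the motifs searched.
MUC1: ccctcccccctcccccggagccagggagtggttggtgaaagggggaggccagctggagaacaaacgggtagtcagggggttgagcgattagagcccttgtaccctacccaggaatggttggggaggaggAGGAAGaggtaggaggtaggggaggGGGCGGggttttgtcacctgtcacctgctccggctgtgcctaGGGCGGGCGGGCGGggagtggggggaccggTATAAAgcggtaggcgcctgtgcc
MUC12: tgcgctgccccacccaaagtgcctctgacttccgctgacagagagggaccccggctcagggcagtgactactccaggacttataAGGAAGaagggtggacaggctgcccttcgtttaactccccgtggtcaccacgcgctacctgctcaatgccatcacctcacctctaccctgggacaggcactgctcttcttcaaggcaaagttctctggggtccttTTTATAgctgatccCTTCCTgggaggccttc
MUC13: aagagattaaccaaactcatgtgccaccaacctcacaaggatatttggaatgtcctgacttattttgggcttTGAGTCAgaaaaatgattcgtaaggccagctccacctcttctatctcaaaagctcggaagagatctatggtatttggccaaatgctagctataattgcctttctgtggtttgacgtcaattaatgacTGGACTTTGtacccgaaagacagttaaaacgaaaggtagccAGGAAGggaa
MUC3A: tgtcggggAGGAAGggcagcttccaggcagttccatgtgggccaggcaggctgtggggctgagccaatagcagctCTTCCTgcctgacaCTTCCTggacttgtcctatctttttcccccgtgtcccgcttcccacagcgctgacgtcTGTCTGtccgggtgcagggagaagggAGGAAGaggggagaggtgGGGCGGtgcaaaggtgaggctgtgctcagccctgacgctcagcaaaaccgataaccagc
MUC17: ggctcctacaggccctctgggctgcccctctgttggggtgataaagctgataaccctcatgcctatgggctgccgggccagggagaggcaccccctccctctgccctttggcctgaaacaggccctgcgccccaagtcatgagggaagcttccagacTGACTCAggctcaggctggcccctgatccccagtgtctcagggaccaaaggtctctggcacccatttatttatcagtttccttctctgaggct

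The motifs searched are given with the share of all 35116 upstream windows of this length in the table that hold them. The TATA box was searched as TATAAA (10.7%), and a site for AP-1 as TGANTCA (6.57%). An ETS site was AGGAAG (28.7%), one for SP1 was GGGCGG (42.6%), one for SMAD was CAGACA (13.6%) and one for HNF4 was CAAAGTCCA (0.325%). The last 4 were AGATAA for GATA factors (9.17%), ACGTG for the hypoxia element (18.5%), TGTTTAC for FOXA (2.98%) and TTCNNNGAA for STAT (6.57%). MUC1 held 1 TATA box, 1 ETS and 4 SP1 matches, of which 3 overlap each other in 1 run. MUC12 held 1 TATA box and 2 ETS matches, and MUC17 held 1 AP-1 match. MUC13 held 1 AP-1, 1 ETS and 1 HNF4 match, and MUC3A held 4 ETS, 1 SMAD and 1 SP1 match. The first MUC16 window held 1 ETS, 1 SMAD and 1 SP1 match, and the second held 1 AP-1 and 1 ETS match. The ETS letters were thus in the windows of MUC1, MUC12, MUC13, MUC16 and MUC3A but not of MUC17. The last 4 motifs of the search were in none of these windows, those of MUC16 included. G and C made up 66.0% of the MUC1 window and 41.6% of the MUC13 window, against a median of 58.0% over all windows. A match is only a description of letters and does not show that a factor binds there.

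Mucin genes lie in clusters, and the cluster on chromosome 7 followed 1 pattern while that on chromosome 11 was split. Along chromosome 7, MUC3A was at 99.0, 138, 0.889 and 0.886 scaled counts in the solid, acinar, single and mix libraries, and MUC17 was at 14.7 and 23.7 in the tumors with no fragment in either culture. MUC17 was thus at least 55.1-fold higher in the solid tumor than in the single culture. All 3 genes of that cluster were lower in the solid than in the acinar tumor, MUC3A 1.39-fold (1.26 to 1.54), MUC12 1.64-fold (1.55 to 1.74) and MUC17 1.62-fold (1.25 to 2.09). MUC3A has near-identical copies, so its count is uncertain. The flanking genes were chosen after their values were seen. The next protein-coding gene on one side, ACHE (acetylcholinesterase), was also high in the tumors, at 13.7 and 12.9 against 0.178 and 0.242. On the other side TRIM56, a ubiquitin ligase gene, went the opposite way, at 10.9 and 8.06 against 42.2 and 40.7.

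On chromosome 11 the order of genes is MUC6, MUC2, MUC5AC and MUC5B. The first pair was low in all 4 libraries, at 5.87 scaled counts or less, while the second gave 401 or more in each. The flanking genes AP2A2, an adaptor subunit of endocytosis, and TOLLIP, a regulator of innate immune signaling, were between 53.1 and 178 scaled counts. AP2A2 was at 87.3, 96.0, 173 and 178, and TOLLIP at 53.1, 58.3, 79.4 and 81.1.

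**Figure D3:**
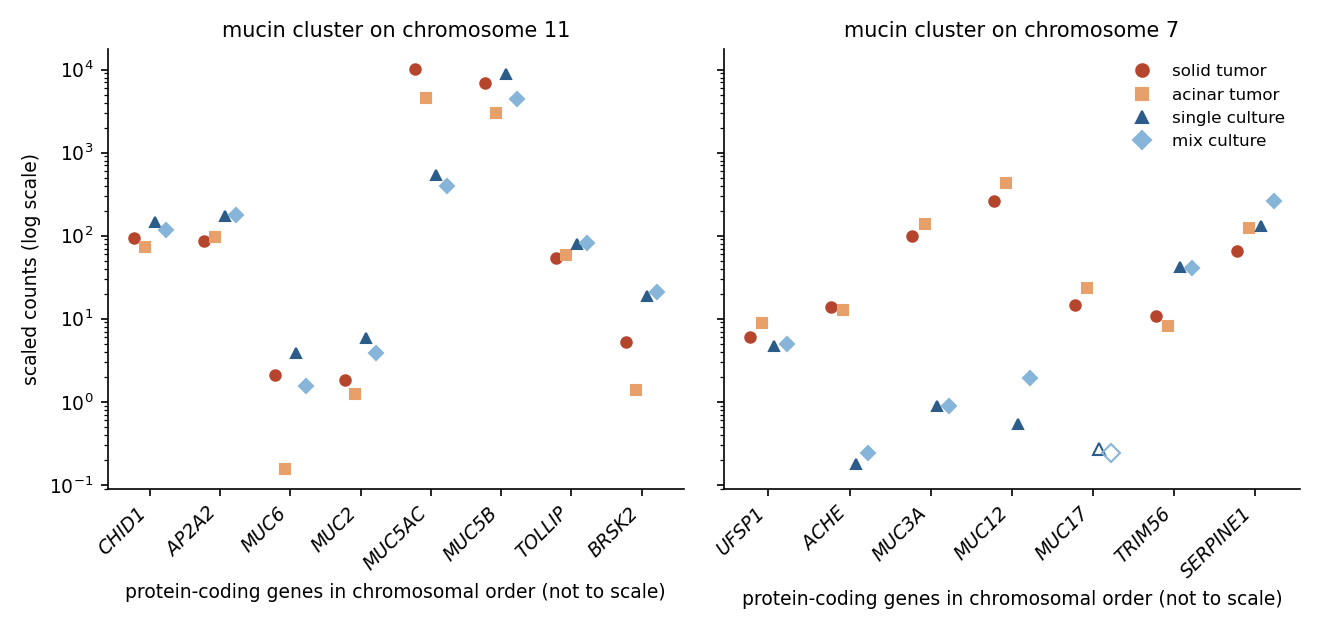
Scaled counts (log axis) of the protein-coding genes in chromosomal order, not to scale, across the mucin clusters on chromosomes 11 and 7, with 2 genes on each side; open symbols mark no fragment, drawn at the 3-fragment limit. On chromosome 7, MUC3A, MUC12 and MUC17 are each far higher in the tumors, and on chromosome 11 MUC6 and MUC2 stay below 6 scaled counts beside MUC5AC and MUC5B.

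The comparison of acinar with solid tumor asks how gland-forming areas differ from solid ones. Both gel-forming mucins were lower in the acinar tumor, MUC5AC 2.25-fold (2.22 to 2.28) and MUC5B 2.33-fold (2.29 to 2.37). MUC6 was 13.5-fold lower, an imprecise ratio from 1 against 15 fragments (2.08 to 569.6). MUC4 was at least 2.71-fold lower, its 9 fragments in the solid tumor being set against the 3-fragment limit. These 4 genes were past 2-fold lower on the log2(value + 1) scale, where 2.55% of 13979 genes were, and none of the 10 was past 2-fold higher, where 1.98% were. MUC4 and MUC6, as well as MUC20, reached the minimum of 1 scaled count in the solid tumor alone and so could enter this comparison only as lower in the acinar tumor, which leaves MUC5AC and MUC5B as the calls free of that choice.

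The tumor-high membrane mucins leaned the other way by less than 2-fold. MUC12 was 1.64-fold, MUC13 1.34-fold (1.27 to 1.40) and MUC16 1.22-fold (1.15 to 1.28) higher in the acinar tumor. MUC2 (0.682, 0.245 to 1.78) and MUC20 (0.277, 0.0287 to 1.39) had acinar-to-solid ratios that were not resolved at this depth. The calls of MUC4 and MUC6 ended with a pseudocount of 5 (-0.32 and -0.46 on the log2 scale), while MUC5AC and MUC5B stayed past 2-fold under all 7 alternatives tried. Both genes were whole and high, so the minimum and whole-fragment settings could not change their ratios and the pseudocounts hardly could. The rescalings could not have ended these calls either. Their factors for the solid and acinar libraries were 1.016 and 1.028 (equal totals) or 1.010 and 1.009 (median of ratios). None of the 7 alternatives was thus a real check on this pair. Leukocyte and ciliated or club marker sums were lower and the fibroblast marker sum higher in the acinar tumor (values above; LUM, a stromal proteoglycan gene, was at 19.6 in the solid and 55.4 in the acinar tumor), and their part in these differences was not tested.

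The comparison of mix with single culture asks how A549 colonies with CAFs differ from those without. MUC5B was 2.01-fold lower in the mix culture (1.99 to 2.03), so it stood at the 2-fold limit itself. MUC5AC was lower by less, 1.36-fold (1.31 to 1.41), and MUC1 was 1.47-fold lower (1.29 to 1.67). MUC16 was 9.66-fold lower, from 4 against 35 fragments (3.45 to 37.4). Of the 8 mucins at 1 scaled count or more in at least one culture, MUC5B and MUC16 were past 2-fold lower, where 1.74% of 13485 genes were, and none was past 2-fold higher, where 0.682% were. Of these 8, MUC16 reached the minimum only in the single culture and MUC12 only in the mix culture, so the direction of each was set by the minimum.

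MUC12 went against the others. It was 3.62-fold higher in the mix culture (1.44 to 10.8) on 24 against 6 fragments, which the log2(value + 1) scale puts at 0.94, short of 2-fold. MUC6 was 2.56-fold lower (1.46 to 4.64) and likewise short of the limit on that scale, at -0.96. MUC2 was 1.52-fold lower (1.03 to 2.25), and the MUC13 ratio of 0.819 was not resolved (0.540 to 1.24). MUC4 and MUC20 were below the minimum in both cultures, and their ratios of 1.06 (0.304 to 3.81) and 0.388 (0.0648 to 1.70) were not resolved. The call of MUC16 ended with a pseudocount of 5 (-0.61) and could not be made with a minimum of 5 scaled counts.

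**Figure D4:**
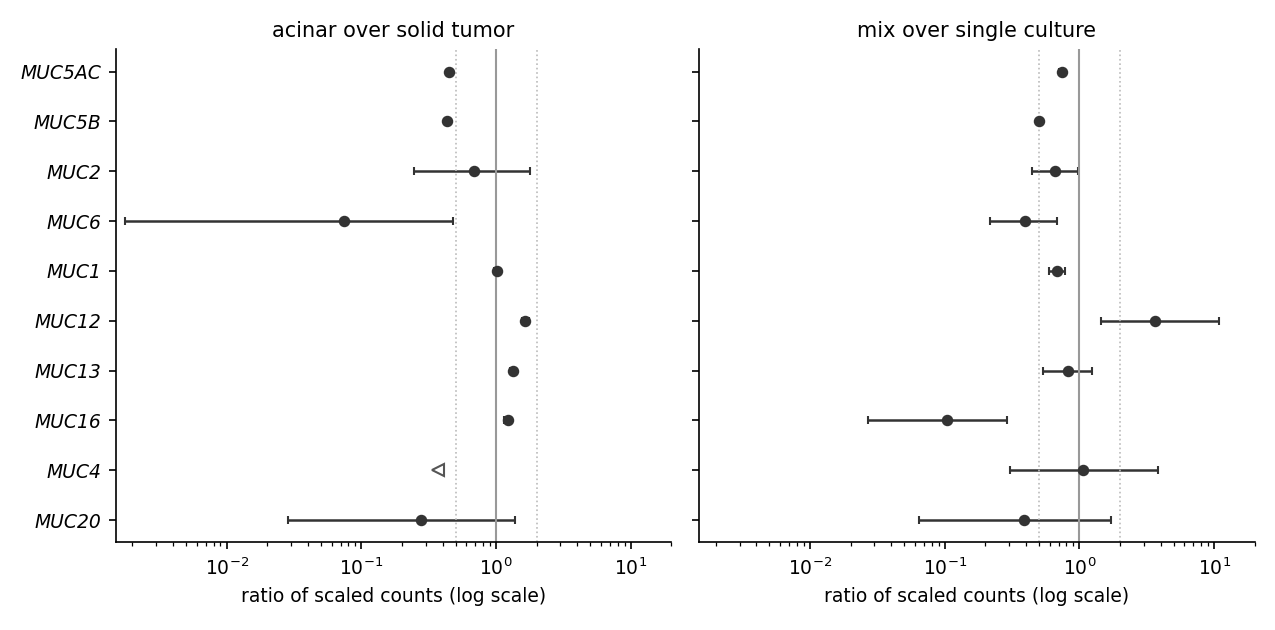
Ratios of scaled counts (log axis) with 95% exact counting intervals for the 10 mucin genes, acinar over solid tumor on the left and mix over single culture on the right; dotted lines mark 2-fold, and the open triangle marks an upper bound for MUC4, which had no fragment in the acinar tumor. MUC5AC and MUC5B lie left of the 2-fold line in the tumors, and MUC5B lies on it in the cultures.

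Most measured genes for companions of the gel-forming mucins had lower RNA levels alongside them. Of 18 genes for mucin companions and goblet cell products, 10 were measured in the tumors and 7 of these were past 2-fold lower in the acinar tumor, none higher (median -1.18, all genes 0.01). Over all genes 2.55% were lower and 1.98% higher, and 1 of the 7, BPIFB1, reached the minimum in the solid tumor alone. AGR2, the endoplasmic reticulum disulfide isomerase needed to fold gel-forming mucins, was at 2749, 1324, 1245 and 551 scaled counts in the solid, acinar, single and mix libraries. It was 2.08-fold lower in the acinar tumor (2.02 to 2.13) and 2.26-fold lower in the mix culture (2.19 to 2.33). CREB3L1, a transcription factor of secretory cells, was at 66.7, 19.7, 8.44 and 1.05, which is 3.39-fold lower in the acinar tumor (2.78 to 4.15) and 8.07-fold lower in the mix culture (4.498 to 15.7). The trefoil peptide gene TFF1, whose product is co-secreted with mucins, was 3.12-fold lower in the acinar tumor (35.4 against 110.3, 2.69 to 3.63). BPIFB1, an airway secretory protein gene, was at 6.29 in the solid tumor and at 1 fragment in the acinar tumor.

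In the cultures only 5 of the 18 companions were measured, and 4 were past 2-fold lower in the mix culture, none higher, where 1.74% and 0.682% of all genes were. They were CREB3L1, AGR2, FCGBP and SCGB1A1. FCGBP, a mucus protein that binds the Fc part of IgG, was at 297, 155, 174 and 46.5 scaled counts, 3.74-fold lower in the mix culture (3.40 to 4.11) and 1.91-fold lower in the acinar tumor. SCGB1A1, the club cell secretoglobin gene, had no fragment in the mix culture and was at 1.87 in the single culture, at least 7.73-fold lower. It reached the minimum in the single culture alone and so could enter only as lower.

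SPDEF, the transcription factor that drives goblet cell differentiation, was at 160.1, 99.5, 59.5 and 37.7 scaled counts in the solid, acinar, single and mix libraries. It was 1.61-fold lower in the acinar tumor (1.46 to 1.77) and 1.58-fold lower in the mix culture (1.40 to 1.78), short of 2-fold in both. FOXA1, a pioneer factor of endodermal epithelium, was 1.44-fold (1.17 to 1.79) and 1.61-fold lower (1.26 to 2.08) in the same comparisons. Its paralogs did not differ beyond counting error: FOXA2 had ratios of 0.921 (0.786 to 1.08) and 1.02 (0.917 to 1.14), and FOXA3 of 0.753 (0.550 to 1.03) and 0.919 (0.648 to 1.30). HNF4A, a regulator of gut and liver epithelium, was 1.38-fold lower in the acinar tumor (1.16 to 1.65) but 1.71-fold higher in the mix culture (1.38 to 2.11).

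Among the 25 transcription factors of mucous and foregut epithelium, 22 were measured in each comparison. In the acinar tumor 1 was past 2-fold higher, SOX2 at 2.79 against 0.699 scaled counts, and none lower (median -0.02, shares over all genes 1.98% and 2.55%). SOX2 reached the minimum in the acinar tumor alone, and this call ended with a pseudocount or a minimum of 5. In the mix culture SOX2 (5.23 against 14.6) and the epithelial ETS factor EHF (29.1 against 62.9, 2.16-fold, 1.90 to 2.46) were past 2-fold lower and none was higher (median -0.14, shares over all genes 1.74% and 0.682%). Both calls ended with a pseudocount of 5. ELF3, an ETS factor of the same family, was at 746 and 687 in the tumors but at 141 and 70.4 in the single and mix cultures (chosen after its values were seen).

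**Figure D5:**
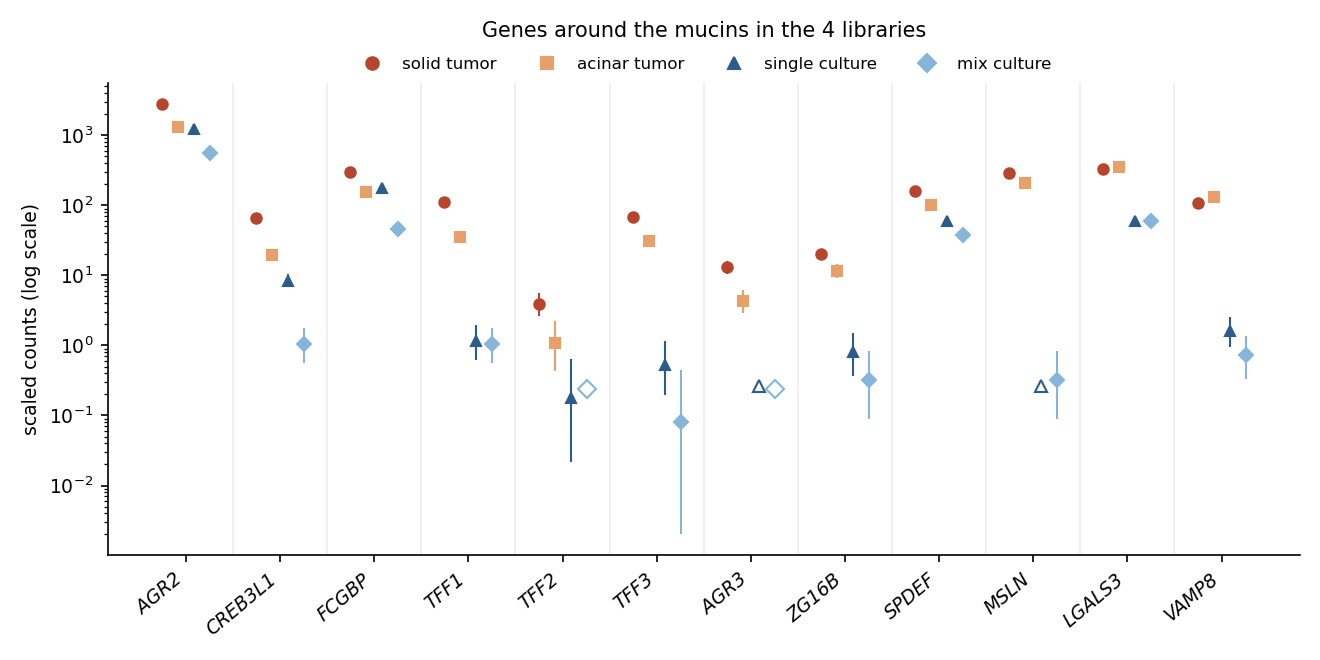
Scaled counts (log axis) of 12 genes around the mucins in the 4 libraries, with 95% exact counting intervals; open symbols mark no fragment, drawn at the 3-fragment limit. AGR2, CREB3L1, FCGBP and SPDEF are lower in the acinar than in the solid tumor and lower in the mix than in the single culture. MSLN and VAMP8 are high in the tumors and far lower in the cultures, where MSLN lies near the limit.

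The enzymes that attach and extend the O-linked sugars had few or no calls within each setting, which is near the share of all genes called (1.98% higher and 2.55% lower in the acinar tumor, 0.682% and 1.74% in the mix culture). No GalNAc transferase gene was past 2-fold, with 13 of 17 measured in the tumors (median 0.06) and 14 in the cultures (median 0.00). Of the 20 genes for core, extension and capping enzymes, ST6GALNAC2 alone was past 2-fold in the tumors, at 0.930 against 2.94 scaled counts in the acinar and solid libraries (17 measured, median -0.13), and none of 14 was in the cultures (median -0.23). ST6GALNAC2 reached the minimum in the solid tumor alone, and its call ended with a pseudocount or a minimum of 5. C1GALT1, the core 1 synthase, was at 53.3, 42.8, 52.7 and 52.7 scaled counts in the solid, acinar, single and mix libraries, and its chaperone gene C1GALT1C1 at 41.8, 47.9, 61.0 and 52.8. GALNT3, 1 of the initiating transferases, had between 0 and 1.40 scaled counts.

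Between the settings single steps of this pathway stood out (chosen after their values were seen). ST6GALNAC1, which makes the sialyl-Tn antigen, was at 79.9 and 63.9 scaled counts in the solid and acinar tumors against 1.51 and 1.13 in the single and mix cultures. B3GNT6, the core 3 synthase, was at 41.5 and 22.8 against 0.622 and 0. Of the 17 core, extension and capping genes measured, 4 had both tumors past 2-fold above both cultures and 1 below, where 9.67% and 8.22% of all genes were.

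Partners of the membrane mucins and the release machinery were not past 2-fold within either setting. Measured in the tumors and cultures were 13 and 12 of 13 partner genes and 13 and 12 of 15 granule genes. These counts of 0 lie near the shares of all genes called. Those were 1.98% higher and 2.55% lower in the acinar tumor, and 0.682% and 1.74% in the mix culture. Between the settings (chosen after their values were seen) mesothelin (MSLN), a surface protein that binds MUC16, was at 289 and 208 scaled counts in the solid and acinar tumors, had no fragment in the single culture and was at 0.322 in the mix culture. MSLN was thus at least 782-fold higher in either tumor than in the single culture. Galectin-3 (LGALS3), a lectin that binds mucin sugars, was at 327, 347, 59.6 and 60.5, and VAMP8, a vesicle fusion protein of mucin granule release, at 109, 131, 1.60 and 0.725.

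The EGFR and IL-13 axes, which control airway mucin genes, had 12 of 18 genes measured in each comparison and none past 2-fold. This again lies near the shares of all genes called (1.98% higher and 2.55% lower in the acinar tumor, 0.682% and 1.74% in the mix culture). EGFR was at 20.3 and 15.3 scaled counts in the solid and acinar tumors and at 134 and 151 in the single and mix cultures, with a fractional count in the cultures. Of the 12 other mucin genes, MUC3A and MUC17 (above), OVGP1, MCAM and CD164 were measured in the tumors and none was past 2-fold. CD164, a small sialomucin, was between 187 and 242 in all 4 libraries. MUC7 and MUCL1 had no fragment in any library.

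Genes whose profile over the 4 libraries was nearest to that of a member were sought for the 3 mucins with the highest mean, as the distance of mean-centred log2(value + 1) values among 11944 genes. For MUC5AC these were SLC44A4 (19.6, 9.46, 0.267 and 0 scaled counts in the solid, acinar, single and mix libraries, distance 0.21), CATSPERB (0.22) and RAD51L3-RFFL (0.32, with a fractional count). For MUC5B they were NOSTRIN (29.1, 13.2, 43.9 and 22.6, distance 0.23), SLC25A42 (0.25) and PLXNB3 (0.25). For MUC1 they were PELI1 (35.4, 37.8, 2.84 and 1.45, distance 0.13), TMEM45B (0.23) and PTPRH (0.23). With 4 libraries, this is a description of 4 values per gene.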

How the data were processed

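The 4 libraries were prepared with a TruSeq RNA kit, per the labels' protocols. Named in the submitters' processing notes are hg19, Cuffdiff 2.2.1, SAMtools 1.0, Bowtie2 2.2.3 and TopHat2 2.0.13, with no roles. The annotation, any filter and the strand setting were not given in the sources used here. For each gene the deposited file gives 1 signal value per library, called raw signal per the file headers, although the values carry a scale factor per library. In each library a step, taken as 1 fragment, divided 90.01% to 91.2% of the deposited signal values above 0 without remainder (tolerance 0.05), and all 10 mucin genes were whole in all 4 libraries. Values were divided by 8.94, 1 constant for all libraries, and keep the authors' scaling between libraries. Without a strand setting, a gene and an antisense partner cannot be told apart.

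The plan fixed log2((value + 1)/(value + 1)) over genes at 1 scaled count or more in at least one library compared, called past 2-fold, with no test. Folds are plain ratios. Lengths are the longest GENCODE v29 transcripts (GRCh38) and promoters are from RefSeq. The 8 lists around the mucins and 5 marker lists (187 entries, all matched) and the 10 members were chosen with earlier results of these data known. Named genes are the 10 mucins, up to 4 members per list past 2-fold, 11 fixed genes and the 3 nearest profiles of 3 mucins; further genes were chosen after their values were seen. Python 3.11.15, scipy 1.17.1 and matplotlib 3.10.9 were used, and the scripts were tested on simulated data.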

Additional observations from a re-analysis of the deposited data

How the results depend on the processing

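With 1 library per group no replicate could be left out, and no paired analysis was possible because the labels give no replicate numbers. The alternatives were pseudocounts of 0.1 and 5, no minimum, a minimum of 5, equal totals, median-of-ratios size factors and only whole fragments; 57 of 70 values of the main counts were within 1.5 times. With equal totals, median-of-ratios factors, no minimum and whole fragments only, all of them were. Leaving out the minimum could not change a count, because values below 1 scaled count cannot pass 2-fold with a pseudocount of 1. All 10 mucins were whole, so the whole-fragment setting could not change their counts either. Mucins past 2-fold lower in the acinar tumor numbered 2 with a pseudocount of 5 and with a minimum of 5, against 4. Those lower in the mix culture numbered 1 under the same 2 settings, against 2. A pseudocount of 0.1 added 1 mucin lower in the acinar tumor (MUC20), 1 lower (MUC6) and 1 higher (MUC12) in the mix culture, and 1 with both tumors below both cultures (MUC2). Genes of the lists past 2-fold higher in the acinar tumor numbered 2 with a pseudocount of 0.1 and 0 with a pseudocount or minimum of 5, and lower ones 5 with a pseudocount of 5. In the mix culture 1 list gene was past 2-fold higher and 10 lower with a pseudocount of 0.1, and 3 were lower with one of 5. Over all genes, higher and lower calls in the acinar tumor numbered 277 and 357, but 478 and 692 where 0.1 was added, 114 and 101 where 5 was added, and the lower ones 203 with a minimum of 5. In the mix culture they were 192 and 522, then 33 and 73, against 92 and 234. For both tumors above and below both cultures a pseudocount of 5 gave 864 and 774 against 1408 and 1197. Calls of low genes therefore moved with the pseudocount. No called mucin ratio changed its sign, but no pseudocount, minimum or whole-fragment setting could change one. The equal-total factors, between 0.975 (single) and 1.03 (acinar), were too close to 1 to do so. Depth limits MUC2, MUC4, MUC6 and MUC20 in all libraries and MUC12 and MUC16 in the cultures.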

Other observations

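Levels of receptors and transferases around the mucins also differed between tumors and cultures (chosen after their values were seen, and reported as values without a replicate check). The EGFR partner gene ERBB3 was at 108 and 64.2 scaled counts in the solid and acinar tumors against 9.69 and 11.2 in the single and mix cultures. The initiating transferase gene GALNT12 was at 116 and 132 against 10.9 and 10.7, whereas GALNT14 was at 1.54 and 2.79 against 20.7 and 25.0. GALNT18 likewise was at 4.75 and 8.84 against 56.4 and 39.4. Of the 15 GalNAc transferase genes measured over all 4 libraries, 2 had both tumors past 2-fold above both cultures and 5 below, where 9.67% and 8.22% of all genes were.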
